A study of Mus musculus with 10 samples.

Results

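The Ly6 genes described here are Ly6a, the gene of Sca-1, and Ly6c1, Ly6c2, Ly6d, Ly6e and Ly6k. They are 6 of the 22594 mouse genes measured. They were picked by name, with their levels in the ear and lung libraries already known, so the difference between the tissues is given for them as a description and was not tested. For each gene the values of all its transcripts were summed and set side by side over 10 libraries. The cells were labelled as fibroblasts, the matrix-making cells of connective tissue, of the ear or the lung of post-mortem mice, at 0 h or 12 h. Each ear group held 3 libraries and each lung group held 2. All groups were post-mortem material, so a library of living tissue was not part of the comparison. The labels used here give no strain, age, sex, number of animals or culture step. They do not say that replicates came from separate animals, so every p measures the spread between these libraries, which may be partly technical. The comparisons asked how RNA levels differed between 0 h and 12 h in each tissue and between the tissues.

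Ly6 proteins are small, cysteine-rich proteins of the cell surface. Most are held to the outer membrane by a glycosylphosphatidylinositol (GPI) anchor, a lipid tail added in the endoplasmic reticulum. In the mouse, Sca-1 is used to sort blood stem cells and marks progenitor-like fibroblasts and many endothelial cells. Ly6c1 and Ly6c2 together make the antigen Ly6C, with Ly6c1 known from endothelial cells and Ly6c2 from monocytes. Ly6e is widely expressed and induced by interferon. Ly6d is known from squamous epithelium and early B cells, and Ly6k from the testis, where it is needed for sperm function. In these libraries the ear cells carried Ly6a, Ly6c1, Ly6c2 and Ly6e at higher levels than the lung cells at both times, and Ly6d and Ly6k were below 1 TPM in every library. TPM gives each transcript its length-corrected portion of all RNA molecules in a library, scaled to a fixed total.

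The 6 genes lie within 349.9 kb on chromosome 15 of build GRCm38. Ly6a was annotated at chr15:74994877-74998031 on the minus strand, Ly6c1 at chr15:75044018-75048830 on the minus strand, and Ly6c2 at chr15:75108158-75111970 on the minus strand. Ly6e was annotated at chr15:74955051-74959905 on the plus strand, Ly6d at chr15:74762056-74763620 on the minus strand and Ly6k at chr15:74796874-74799986 on the minus strand. Ly6k overlapped an antisense gene, Gm17189, which had no transcript in the table. The coding sequences of Ly6a, Ly6c1 and Ly6c2, from GENCODE vM21 on GRCm38, are printed because near-identical stretches decide how reads were divided between these genes. Each is shown from base 1, the A of the start codon, to base 300. In Ly6a, whose coding sequence has 405 bases, the capitals mark the first 105, which are the whole of a shorter, incomplete Ly6a model. In Ly6c1 and Ly6c2, with 396 coding bases each, the capitals mark bases at which they differ from each other, 7 of the 9 in all.
Ly6a: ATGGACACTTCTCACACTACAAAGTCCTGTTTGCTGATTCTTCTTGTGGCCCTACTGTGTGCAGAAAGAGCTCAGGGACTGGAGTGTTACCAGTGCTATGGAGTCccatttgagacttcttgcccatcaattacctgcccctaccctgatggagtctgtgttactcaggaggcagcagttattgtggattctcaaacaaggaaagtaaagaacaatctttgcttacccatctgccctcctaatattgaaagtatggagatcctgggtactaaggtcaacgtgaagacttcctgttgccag
Ly6c1: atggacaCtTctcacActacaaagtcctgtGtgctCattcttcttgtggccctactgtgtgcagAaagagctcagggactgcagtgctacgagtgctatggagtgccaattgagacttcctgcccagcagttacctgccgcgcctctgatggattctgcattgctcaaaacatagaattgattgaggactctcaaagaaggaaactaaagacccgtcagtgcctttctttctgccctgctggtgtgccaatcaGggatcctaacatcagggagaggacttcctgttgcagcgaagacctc
Ly6c2: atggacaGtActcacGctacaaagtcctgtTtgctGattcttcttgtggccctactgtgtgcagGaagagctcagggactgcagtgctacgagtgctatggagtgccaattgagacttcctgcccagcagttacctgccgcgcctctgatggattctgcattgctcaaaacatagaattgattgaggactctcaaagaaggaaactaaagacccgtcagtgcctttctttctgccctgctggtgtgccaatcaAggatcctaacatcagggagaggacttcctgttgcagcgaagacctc

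Ly6c1 and Ly6c2 were 97.7% identical over their coding sequences, with an identical run of 188 bases. Ly6a was 82.0% identical to Ly6c1 and 81.7% to Ly6c2. It was 86.4% identical to its neighbour Ly6i, which is another Ly6 gene. Ly6e shared 52.2% with Ly6a, which is close to the 44.0% to 50.6% found between Ly6e, Ly6d and Ly6k. Reads are told apart by the stretches that only 1 gene holds, so the share of such stretches was computed over words of 31 bases. Of the coding words of Ly6c2, 34.4% were in no other gene and 59.6% were also in Ly6c1. The share in no other gene was 57.1% for Ly6c1 and 72.5% for Ly6a. It was 100% for Ly6e, Ly6d and Ly6k. The split of reads between Ly6c1 and Ly6c2, and that between them and Ly6a, is therefore uncertain, while Ly6e shared no word with any other gene. Fewer words were shared with Ly6a, but the share of words takes no account of how abundant each gene is.

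**Figure D1:**
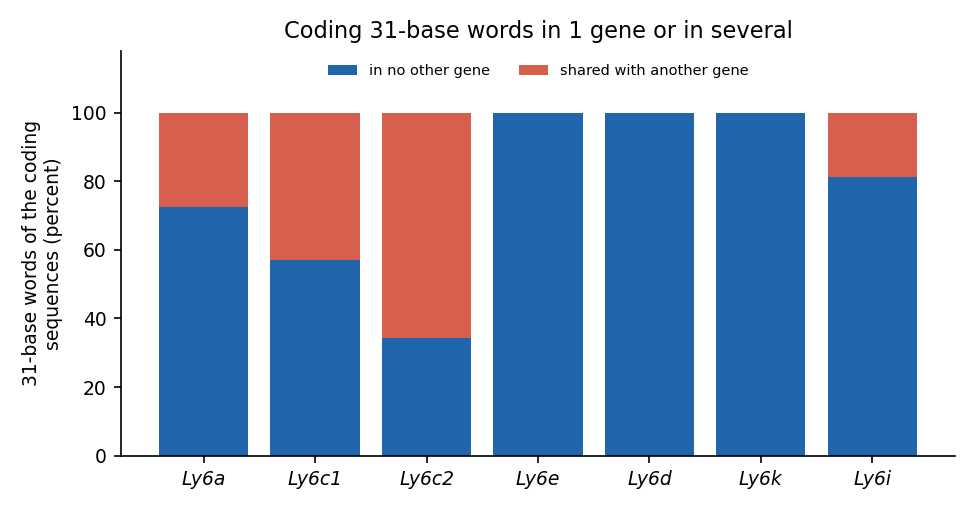
Share of the 31-base words of each gene's coding sequences that no other gene holds (blue) or that another gene also holds (red), in percent. Ly6c2 has the lowest share of its own at 34.4%, and Ly6e, Ly6d and Ly6k reach 100%.

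Ly6a was among the most abundant RNAs of the ear cells. At 0 h the ear libraries held 2899, 1664 and 1789 TPM of Ly6a, and at 12 h they held 2862, 1142 and 1930 TPM. The lung libraries held 15.3 and 23.7 TPM at 0 h and 15.2 and 18.6 TPM at 12 h. Every ear library was above every lung library, and the lowest ear value, 1142 TPM, stood against a highest lung value of 23.7 TPM. Among all genes of a library, Ly6a ranked between 29 and 137 in the ear and between 4782 and 6024 in the lung. Group means were 2117 ± 680 TPM (SD, n = 3) in the ear at 0 h and 1978 ± 861 TPM (SD, n = 3) at 12 h. In the lung they were 19.5 ± 5.94 TPM (SD, n = 2) at 0 h and 16.9 ± 2.42 TPM (SD, n = 2) at 12 h. The ratio of the ear mean to the lung mean was 109 at 0 h and 117 at 12 h. In order of level, ear at 0 h and ear at 12 h overlapped, as did lung at 0 h and lung at 12 h, and a wide gap lay between the tissues. In these bulk libraries, fewer cells with a given RNA and less of it per cell cannot be told apart.

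**Figure D2:**
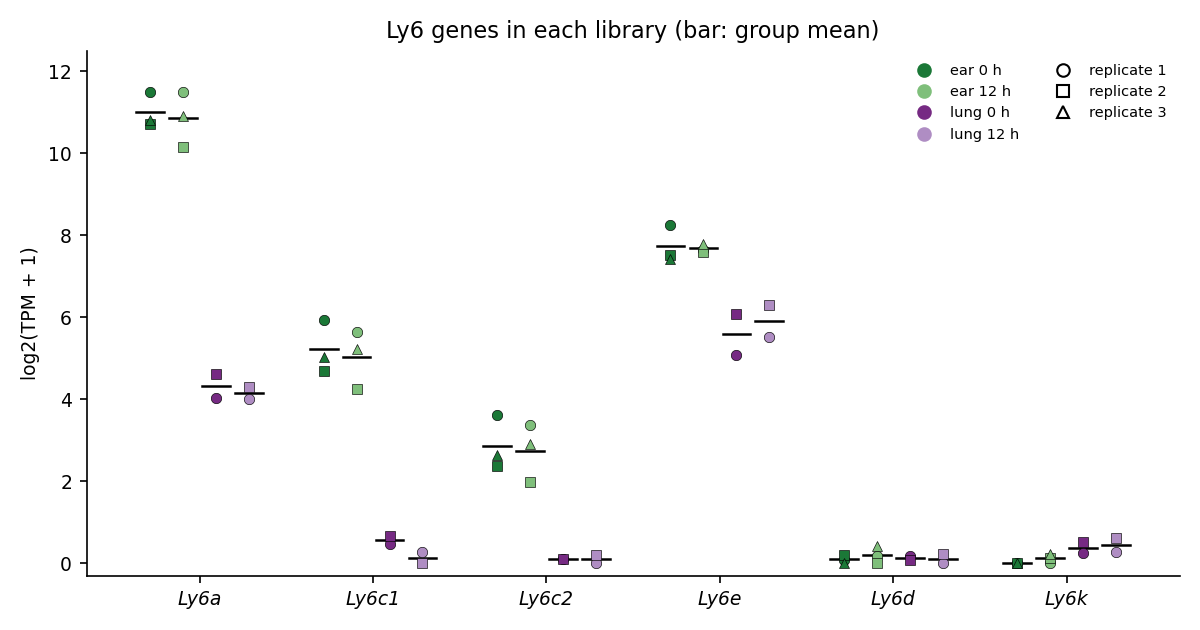
Level of the 6 Ly6 genes in each of the 10 libraries, as log2(TPM + 1). Colours show tissue and time, shapes the replicate number and black bars the group mean. Ly6a, Ly6c1, Ly6c2 and Ly6e are higher in all 6 ear libraries than in all 4 lung libraries, and Ly6d and Ly6k lie near 0.

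Most of the Ly6a TPM sat on 1 short transcript model. The model ENSMUST00000190188.1 has an incomplete coding sequence of 105 bases, all of them within the full coding sequence (the capitals above). It held 77.1% to 82.8% of the Ly6a TPM in the 6 ear libraries and 76.4% to 87.7% in the 4 lung libraries. The other models, which share 1 coding sequence, had equal TPM in each library. Across the table, 3941 of 3942 sets of transcripts of 1 gene with the same coding but different full sequence had exactly equal TPM in all 10 libraries. By contrast, 2 of 6174 genes had such equality between transcripts that differ in coding sequence. The deposited values therefore do not separate transcripts that differ in their untranslated regions alone. Because TPM divides by length, a read placed on a short model weighs more than one placed on a full coding sequence. Counting only the TPM of complete models, Ly6a in the ear ranged from 259.7 to 558.5 TPM and in the lung from 2.28 to 5.56 TPM. This drops the TPM of the short model and does not place its reads on the complete ones, so it is not a new estimate of the level. The ratio of ear to lung means was then 97.2 at 0 h and 144 at 12 h. The contrast between the tissues therefore remained without these models, whereas the level of Ly6a against other genes depends on them. For Ly6e, incomplete models held 34.7% to 40.9% in the ear and 37.3% to 41.7% in the lung. The ratios of its means were 4.38 at 0 h and 3.58 at 12 h without those models.

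**Figure D3:**
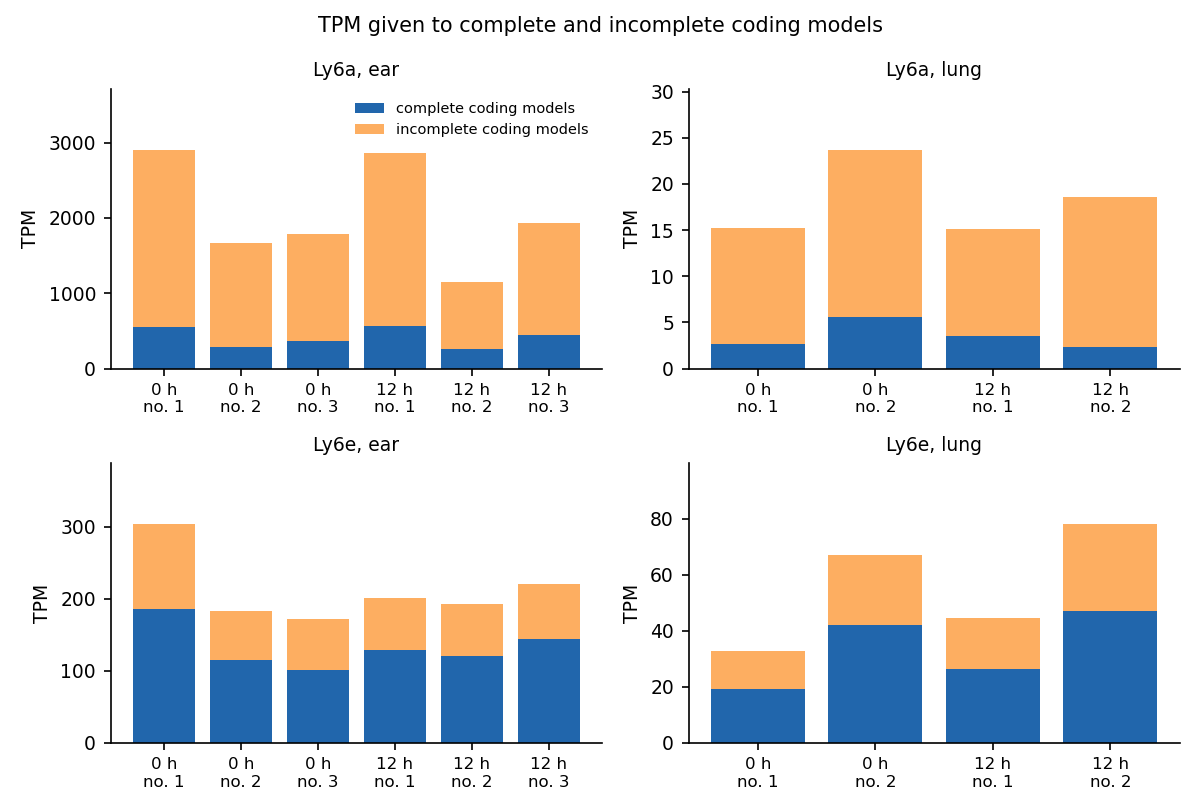
TPM of Ly6a (top) and Ly6e (bottom) in each ear library (left) and lung library (right), split into transcripts with a complete (blue) and an incomplete (orange) coding sequence. The vertical scales differ between panels. The incomplete model holds most of the Ly6a TPM in all 10 libraries.

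Ly6c1 followed Ly6a in the ear at a lower level. The ear libraries held 60.4, 24.8 and 31.8 TPM of Ly6c1 at 0 h and 48.8, 18.1 and 36.7 TPM at 12 h. The lung libraries held 0.396 and 0.583 TPM at 0 h, and 0.202 and 0 TPM at 12 h. All ear libraries were above 18 TPM and all lung libraries below 1 TPM, so no ratio is given. Ly6c1 stood at 1.49% to 2.08% of Ly6a in the same library in the ear, and at 0% to 2.59% in the lung. How much of the Ly6c1 level came from reads of the more abundant Ly6a was not tested.

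Ly6c2 was lower again. It had 11.2, 4.15 and 5.23 TPM in the ear libraries at 0 h and 9.31, 2.95 and 6.47 TPM at 12 h. In the lung it had 0.0699 and 0.0694 TPM at 0 h, and 0 and 0.159 TPM at 12 h. The tissues did not overlap for Ly6c2 either. In the 6 ear libraries Ly6c2 was 16.2% to 19.1% of Ly6c1, a narrow range for a pair of genes that share most of the words of Ly6c2. Against Ly6a in the same library, Ly6c2 stood at 0.249% to 0.387% in the ear and at 0% to 0.858% in the lung. Summed, the Ly6C pair differed between lung and ear by -4.81 at 0 h and by -5.03 at 12 h on the log2(TPM + 1) scale. This sum does not depend on the split between Ly6c1 and Ly6c2, but it does depend on their split with Ly6a.

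Ly6e, which shared no coding words with other genes, was high in both tissues and higher in the ear. Its ear values were 303.2, 183.7 and 171.4 TPM at 0 h and 200.3, 192.4 and 220.5 TPM at 12 h. Its lung values were 32.7 and 67.2 TPM at 0 h and 44.8 and 78.1 TPM at 12 h. The lowest ear library, at 171.4 TPM, was above the highest lung library, at 78.1 TPM. The ear mean was 4.39 times the lung mean at 0 h and 3.33 times at 12 h. In the lung, Ly6e was 214% to 420% of Ly6a in the same library, and in the ear it was at most 16.8%. The order of Ly6a and Ly6e was thus opposite in the tissues. This order also held when only the TPM of complete models was counted. In the ear the lowest Ly6a value was then 259.7 TPM and the highest Ly6e value 185.6 TPM. In the lung the highest Ly6a value was 5.56 TPM and the lowest Ly6e value 19.0 TPM.

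Ly6d did not exceed 0.347 TPM in the ear or 0.168 TPM in the lung, and it was listed at 0 in 3 of the 10 libraries. Ly6k was listed at 0 in all 3 ear libraries at 0 h and in 1 of them at 12 h, where the others had 0.101 and 0.170 TPM. Its lung values were 0.189 and 0.437 TPM at 0 h and 0.209 and 0.538 TPM at 12 h. The lung values of Ly6k were thus above all ear values, but all of them lay below 1 TPM, and without read counts their precision is unknown. Ly6d overlapped between the tissues. These genes did not reach 1 TPM in at least 2 libraries, the level set for testing, and 4 of the 6 Ly6 genes did.

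On the log2(TPM + 1) scale, which understates differences of low genes, lung minus ear was -6.68 at 0 h and -6.70 at 12 h for Ly6a. It was -4.65 and -4.91 for Ly6c1, -2.77 and -2.64 for Ly6c2, and -2.15 and -1.77 for Ly6e. Ranked from the most negative of the 13188 genes tested, Ly6a was number 2 at both times. Ly6c1 was number 20 at 0 h and 23 at 12 h, Ly6c2 136 and 214, and Ly6e 247 and 458. These values separate a very large difference for Ly6a from a moderate one for Ly6e. Between lung and ear, 11.3% of all genes tested were called at 0 h and 17.2% at 12 h (limma, adjusted p under 0.05). Those lower in lung were 5.17% and 9.12% of the genes tested. The 4 Ly6 genes were chosen with this contrast known, so nothing is read from their place in that share.

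Within the ear the replicates differed, and Ly6a, Ly6c1 and Ly6c2 differed in the same order. At both times replicate 1 was highest, replicate 3 was in the middle and replicate 2 was lowest for each of these genes. The highest ear library exceeded the lowest by 2.54 times for Ly6a, 3.33 times for Ly6c1 and 3.80 times for Ly6c2. Ly6e spanned 1.77 times, and its order was not the same at both times. Ly6a, Ly6c1 and Ly6c2 share coding words with each other, and Ly6e does not.

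Between 0 h and 12 h no Ly6 gene differed beyond the spread between libraries. In the ear the log2 difference of Ly6a was -0.15 (SE 0.346, 95% interval -0.93 to 0.63). In the lung it was -0.17 (SE 0.423, interval -1.13 to 0.78). These intervals are wide, so they do not show that the level stayed the same. In the ear, Ly6c1 differed by -0.18 (SE 0.393) and Ly6c2 by -0.12 (SE 0.397). In the lung both of these were below 1 TPM in all 4 libraries and had passed the filter through the ear alone, so their time difference there is given by the levels above and not by a test. Ly6e differed by -0.06 (SE 0.320) in the ear and by 0.33 (SE 0.392) in the lung. With limma, 0 of 4 Ly6 genes passed in the ear and 0 of 2 (Ly6a and Ly6e) in the lung, each with an adjusted p of 1, and 0 of these had an unadjusted p under 0.05. Over all 13188 genes, 0% were called in the ear and 0.00758% in the lung, where 1 gene passed. At an unadjusted p under 0.05 the table held 219 genes in the ear and 526 in the lung. The whole table thus showed almost no change with time at this group size. Without lung 12 h replicate 1, 121 genes were called in the lung. That fit has 1 lung library at 12 h, which is assumed to vary like the other groups.

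**Figure D4:**
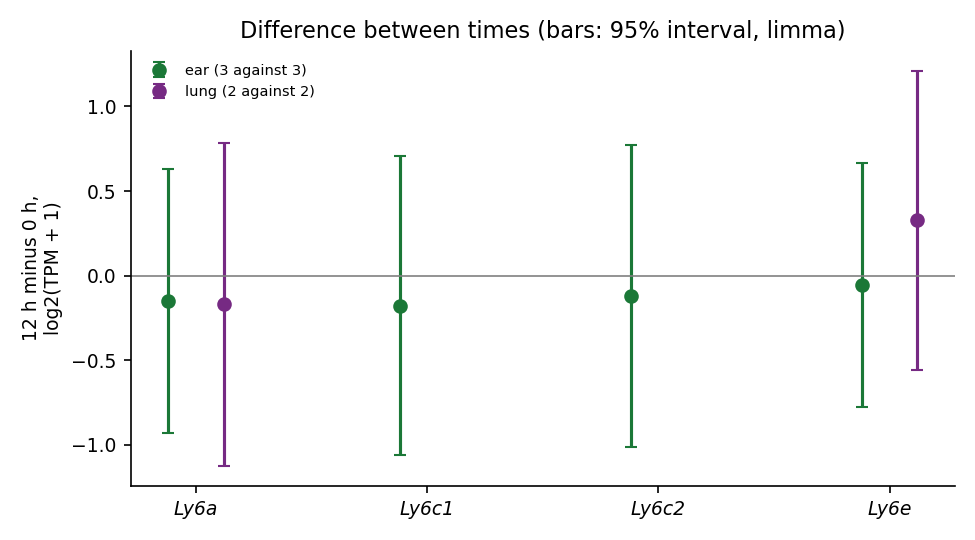
Difference between 12 h and 0 h on the log2(TPM + 1) scale for 4 Ly6 genes in ear (green) and, where at least 2 lung libraries reached 1 TPM, in lung (purple). Points are limma estimates and bars 95% intervals. All 6 intervals include 0.

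The test of whether the time difference itself differed between the tissues passed for neither Ly6a nor Ly6e, the 2 above 1 TPM in both tissues. The interaction, lung change minus ear change, was -0.02 (SE 0.547) for Ly6a and 0.38 (SE 0.507) for Ly6e. With limma, 0 of these 2 passed (adjusted p = 1.00 for each), against 0% of all genes tested, and the table held 387 genes at an unadjusted p under 0.05, among them neither of the 2.

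Relatives of the 6 genes belong to the same protein superfamily. Of 36 relatives measured, 7 reached a group mean of 1 TPM. The remaining 29 did not exceed 1.09 TPM in any library, and 7 of them were at 0 throughout. Ly6i, the gene between Ly6e and Ly6a, had 0.944 to 2.29 TPM in the ear libraries and was listed at 0 in all 4 lung libraries. It was lower in lung at 0 h (log2 difference -1.15, SE 0.220, limma adjusted p = 0.0101) and at 12 h (-1.49, SE 0.220, adjusted p = 0.00207). Ly6i passed the filter through the ear alone, so these values are a description. The call at 0 h was lost without lung 0 h replicate 1 (adjusted p = 0.0783) or replicate 2 (adjusted p = 0.0579). Ly6i shared 13.3% of its coding words with Ly6a, and its ear values were 0.0471% to 0.118% of those of Ly6a.

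Plaur, the receptor of urokinase, had 57.8 to 164 TPM in the lung libraries and 21.0 to 46.0 TPM in the ear libraries, the opposite direction to Ly6a. Its lung minus ear difference passed at 12 h (1.89, SE 0.475, adjusted p = 0.0244) but not at 0 h (1.30, SE 0.475, adjusted p = 0.123). The 12 h call was lost without lung 12 h replicate 2 (adjusted p = 0.171), ear 12 h replicate 1 (0.0748) or ear 12 h replicate 3 (0.0712). Whether the difference itself changed between the times was tested by the interaction, which did not pass (adjusted p = 1.00).

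The other relatives above 1 TPM did not pass at either time. Cd59a and Cd59b, which protect cells from complement, overlapped between the tissues. Cd59a had 14.3 to 27.3 TPM in the ear and 16.0 to 27.1 TPM in the lung, and Cd59b had 24.4 to 42.8 TPM and 19.3 to 46.1 TPM. Lypd1 had 20.8 to 45.8 TPM in the ear and 21.4 to 29.2 TPM in the lung. Lynx1, a modulator of nicotinic acetylcholine receptors, had 38.3 to 76.3 TPM in the ear and 14.1 to 39.2 TPM in the lung. Its difference was -1.21 (SE 0.370, adjusted p = 0.0695) at 0 h and -0.38 (SE 0.370, adjusted p = 0.527) at 12 h. Slurp1 did not exceed 2.34 TPM in any library. Of the 7 relatives tested, 0 were called higher and 1 lower in lung at 0 h, and 1 higher and 1 lower at 12 h. Over all genes, 11.3% were called at 0 h and 17.2% at 12 h, so nothing is read from these few calls. Their median differences were -0.51 and -0.29, against -0.08 and -0.14 over all genes tested.

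Few other genes along the chromosome were expressed. The window reaching 200 kb beyond the outermost Ly6 genes held 26 measured genes, of which 20 were not among the 6. Of these 20, 6 reached a group mean of 1 TPM, namely Arc, Jrk, Them6, Slurp1, Lynx1 and Ly6i. Jrk had 4.72 to 5.48 TPM in the ear and 2.60 to 3.52 TPM in the lung, and its difference passed at 12 h (-0.69, SE 0.173, adjusted p = 0.0238) but not at 0 h (-0.53, SE 0.173, adjusted p = 0.0862). Arc and Them6 did not pass at either time. Ly6g, Ly6f and BC025446, on the far side of Ly6c2, were all below 1 TPM in every group mean.

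**Figure D5:**
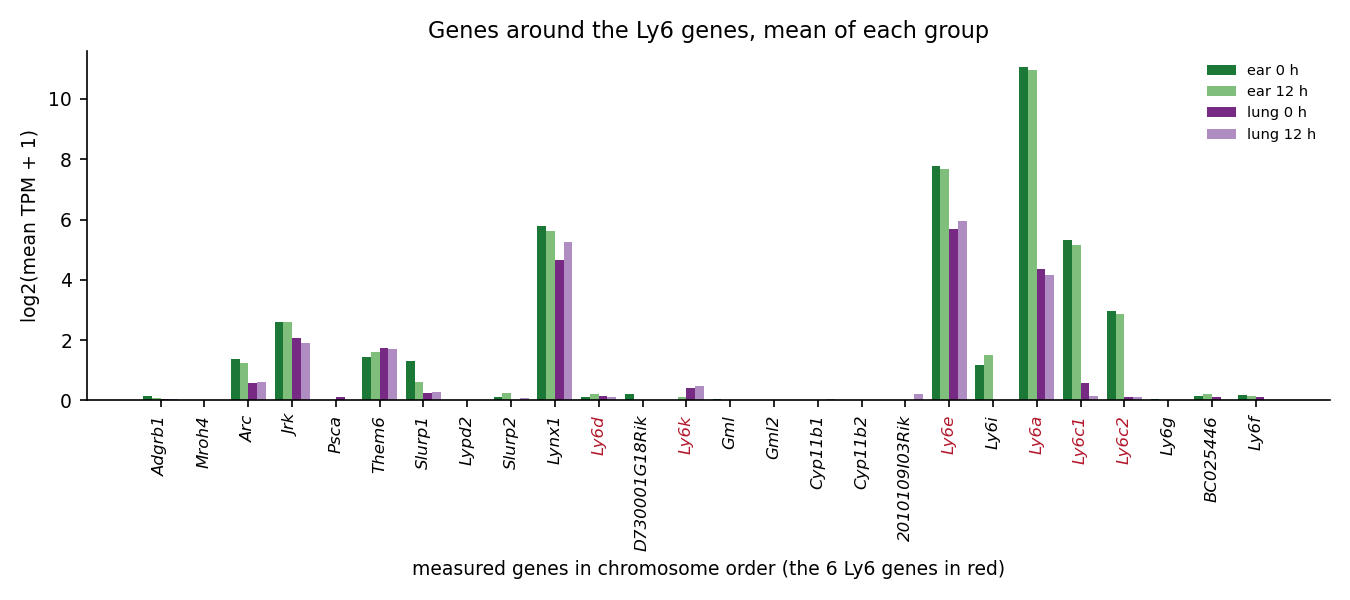
Mean level of the 26 measured genes around the Ly6 genes, in chromosome order, as log2(mean TPM + 1) for each group. The 6 Ly6 genes are in red. Ly6e, Ly6a, Ly6c1 and Ly6c2 stand out in the ear groups, and most genes between Lynx1 and Ly6e lie near 0.

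Of 27 genes measured that form and attach the GPI anchor, 26 were tested between the tissues. At 0 h 1 was higher and 0 lower in lung, and at 12 h 1 was higher and 1 lower, beside 11.3% and 17.2% of all genes called. Pgap1, which removes a fatty acid from the new anchor, was higher in lung at 0 h (1.48, SE 0.234, adjusted p = 0.00393) and at 12 h (1.65, SE 0.234, adjusted p = 0.00169). Its levels were 1.80 to 2.26 TPM in the ear and 5.50 to 9.93 TPM in the lung. Pign, an anchor-building enzyme, was lower at 12 h (-0.67, SE 0.196, adjusted p = 0.0443). This call was kept in 11 of 22 alternatives. Upper-quartile scaling (adjusted p = 0.0779), quantile normalization (0.0693) and array weights (0.0898) were among those that lost it. The medians of the list were -0.22 and -0.21, against -0.08 and -0.14 for all genes.

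Markers of Sca-1 positive fibroblasts and progenitors were mixed, with the largest differences toward the ear. Of 19 tested, 2 were higher and 5 lower in lung at 0 h, and 2 were higher and 7 lower at 12 h. Over all genes, 6.11% were called higher and 5.17% lower at 0 h, and 8.07% higher and 9.12% lower at 12 h. The list was chosen with earlier results of these data known, so these counts and the adjusted p values below are a description. The genes named next had the largest differences, and the 2 called higher in lung at each time are not among them. Il1rl1, the receptor of interleukin-33, had 1070 to 2520 TPM in the ear and 6.22 to 28.1 TPM in the lung. It was lower in lung at 0 h (-7.58, SE 0.328, adjusted p = 7.90e-06) and at 12 h (-5.90, SE 0.328, adjusted p = 1.85e-05). Dpt, which encodes the matrix protein dermatopontin, had 28.8 to 95.4 TPM in the ear and 0.779 to 1.59 TPM in the lung (-4.65 at 0 h, SE 0.428, adjusted p = 0.000207). Thy1, a GPI-anchored fibroblast antigen outside the Ly6 family, had 218.7 to 368.4 TPM in the ear and 11.1 to 53.1 TPM in the lung (-3.87 at 0 h, SE 0.437, adjusted p = 0.000657). Efemp1, which encodes the matrix protein fibulin-3, had 143 to 307.6 TPM in the ear and 5.30 to 17.4 TPM in the lung (-4.30 at 12 h, SE 0.403, adjusted p = 0.000172). Medians over the list were -0.75 and -1.51. Leaving out any 1 library gave 5 to 8 calls at 0 h and 7 to 11 at 12 h.

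Interferon-response genes, a class to which Ly6e and Ly6a belong, held calls in both directions. Of 33 tested, 1 was higher and 5 lower in lung at 0 h, and 2 were higher and 5 lower at 12 h. Over all genes 11.3% and 17.2% were called, and the share of the list at 12 h was near that. Ifit1 had 2.57 to 8.81 TPM in the ear and 0.245 to 0.828 TPM in the lung (-1.93 at 0 h, SE 0.379, adjusted p = 0.0115; -2.04 at 12 h, SE 0.379, adjusted p = 0.00648). Ifit2 (-1.66 at 0 h, SE 0.217, adjusted p = 0.00141) and Ifit3 (-1.62 at 0 h, SE 0.358, adjusted p = 0.0191) were also lower. Ifit3 was lower at 12 h as well (-1.57, SE 0.358, adjusted p = 0.0164). Oas1a, a sensor of double-stranded RNA, was higher in lung at 12 h (2.90, SE 0.468, adjusted p = 0.00323). Ifit1 and Ifit3 passed the filter through the ear alone and Oas1a through the lung alone, so their values are a description. List medians were -0.50 and -0.44. The count at 0 h fell to 2 without lung 0 h replicate 1, and to 3 without lung 0 h replicate 2, ear 0 h replicate 2 or ear 12 h replicate 2 or 3. At 12 h it fell to 2 without lung 12 h replicate 2.

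Both tissues carried the general fibroblast markers, and the lung libraries also carried myeloid RNA. Col1a1, a collagen gene, had 373.5 to 755.8 TPM in the ear and 469.6 to 1242 TPM in the lung. Of 10 general fibroblast markers tested, 0 were higher and 1 lower in lung at 0 h, and 0 were higher and 2 lower at 12 h. Over all genes, 11.3% were called at 0 h and 17.2% at 12 h, so nothing is read from these counts. The 10 markers summed to 6864 to 15394 TPM in the ear and 4715 to 9524 TPM in the lung. The fibroblast calls were Fn1 at both times and Lum at 12 h, and each was lost when 1 of several libraries was left out.

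Monocyte and neutrophil markers, 16 in all, summed to 23.4 to 53.4 TPM in the ear and 5270 to 16213 TPM in the lung. Of 12 tested, 10 were higher in lung at 0 h and 12 at 12 h, with 0 lower at either time. Over all genes, 6.11% were called higher in lung at 0 h and 8.07% at 12 h. Of the 16 markers, 5 had a mean of at least 1 TPM in the ear and 13 in the lung. Markers that passed the filter through the lung alone could hardly be lower there, so these counts are a description. Lyz2, a lysozyme of macrophages and neutrophils, made up most of the lung sum, with 13.8 to 31.9 TPM in the ear and 4775 to 13720 TPM in the lung (8.16 at 0 h, SE 0.365, adjusted p = 7.90e-06; 8.57 at 12 h, SE 0.365, adjusted p = 6.72e-06). Tyrobp (7.63 at 12 h, SE 0.526, adjusted p = 3.28e-05) and Fcer1g (5.47 at 0 h, SE 0.512, adjusted p = 0.000217), which encode signalling adaptors of myeloid cells, were higher too. Ptprc, the gene of the blood cell antigen CD45, did not exceed 0.166 TPM in the ear and had 8.80 to 42.2 TPM in the lung. The ear libraries listed Ccr2, Cx3cr1, Cxcr2 and Ly86 at 0 in all 6. The lung libraries, where the summed myeloid markers were high, held at most 0.159 TPM of Ly6c2, the monocyte-associated gene. Single markers differed widely there. Ccr2, a monocyte receptor, did not exceed 0.122 TPM, and Cx3cr1 had 0.0487 to 4.02 TPM. Csf1r had 4.92 to 110.9 TPM and Itgam 9.32 to 94.98 TPM in the lung. Each of these was highest in lung 12 h replicate 2. Lung 12 h replicate 2 had the highest Lyz2 at 13720 TPM, and its Ly6a, 18.6 TPM, lay inside the range of the other lung libraries. The part of the myeloid RNA in the lung levels of the Ly6 genes was not tested.

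Endothelial markers, 14 in all, summed to 32.2 to 80.8 TPM in the ear and 19.9 to 29.7 TPM in the lung, and none was at 0 throughout either tissue. Of 7 tested, 0 were higher and 1 lower in lung at 0 h, and 0 were higher and 4 lower at 12 h. Over all genes, 5.17% were called lower in lung at 0 h and 9.12% at 12 h. Of the 14 markers, 6 had a mean of at least 1 TPM in the ear and 3 in the lung, so the filter favoured the ear. Pecam1, a defining endothelial gene, did not exceed 2.61 TPM in the ear or 0.731 TPM in the lung. At 12 h Emcn (-2.16, SE 0.426, adjusted p = 0.00845), Plvap (-1.76, SE 0.316, adjusted p = 0.00546) and Egfl7 (-1.46, SE 0.316, adjusted p = 0.0128) were lower in lung. Emcn, Plvap and Erg passed the filter through the ear alone, so their values are a description. The 1 call at 0 h, Erg, was lost without either lung 0 h library without ear 0 h replicate 1 or 2 and without ear 12 h replicate 3, and 1 call was left at 12 h without lung 12 h replicate 2. The part of endothelial RNA in the ear levels was not tested.

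Keratinocyte and epithelial markers, 14 in all, summed to 39.3 to 101.8 TPM in the ear and 21.2 to 58.2 TPM in the lung. Of 9 tested, 3 were higher and 2 lower in lung at each time, beside 11.3% of all genes called at 0 h and 17.2% at 12 h. Krt18 was higher in lung (2.91 at 0 h, SE 0.452, adjusted p = 0.00369), as was Krt8 at 12 h (2.23, SE 0.561, adjusted p = 0.0250). Both passed the filter through the lung alone, so these values are a description. Perp (-3.29 at 0 h, SE 0.534, adjusted p = 0.00445) and Trp63 (-2.88 at 0 h, SE 0.236, adjusted p = 0.000112) were lower. Trp63 passed the filter through the ear alone, so its value is a description as well. The 5 calls at 0 h became 3 without lung 0 h replicate 1. The 5 at 12 h became 1 without lung 12 h replicate 2, 3 without ear 12 h replicate 1, and 2 without ear 12 h replicate 2 or 3. Lymphocyte markers, 12 in all, summed to 0.702 to 1.07 TPM in the ear and 5.70 to 27.3 TPM in the lung. Only Il7r of these passed the filter, and it did so through the lung alone. It is therefore given by its levels and not by a test, at most 0.181 TPM in the ear and 4.78 to 25.3 TPM in the lung. Cd8a was at 0 in all 10 libraries.

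The genes whose levels ran most like each Ly6 gene were named by Pearson's r of log2(TPM + 1) over the 10 libraries. The libraries fall into 2 clusters by tissue, so such an r mostly ranks genes by how cleanly they separate ear from lung, and it is given as a description. For Ly6a they were Trp63 (r = 0.998), Sox9 (r = 0.996), Mab21l2 (r = 0.995), Ly6c1 (r = 0.995) and Ahr (r = 0.994). Trp63, which encodes a transcription factor of squamous epithelium, had 4.61 to 8.18 TPM in the ear and at most 0.0635 TPM in the lung. Sox9, a transcription factor of cartilage and other tissues, had 18.0 to 27.6 TPM in the ear and at most 0.430 TPM in the lung. Krt5 and Krt14, keratins of basal keratinocytes, did not pass the filter, while 9 markers of the same epithelial list did, Trp63 and Perp among them. The part of epithelial RNA in the ear levels was not tested. For Ly6c1 the genes were Trp63, Ly6a, Hrct1, Mab21l2 and Sned1, with r from 0.992 to 0.996. For Ly6c2 they included Ly6c1, P3h2, Sdr39u1 and Slc2a12, with r from 0.986 to 0.987. For Ly6e they were Spata7, 1810010H24Rik, Cdk2ap2, Kiz and Sulf2, with r from 0.979 to 0.988. Ly6a and Ly6c1 thus appeared in each other's lists, and Ly6e shared no gene with the other 3 lists. Ly6a, Ly6c1 and Ly6c2 share coding words, and whether reads that fit more than 1 of them added to their likeness was not tested.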

How the data were processed

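RNA sequencing libraries of ear and lung fibroblasts were analysed from 1 table of TPM, which the authors deposited for 61440 transcripts. Per the submitters' processing notes, the deposited TPM came from kallisto 0.44.1 with build GRCm38. The transcript set of the index, bias correction and strand setting are not given in the sources used. Per the labels' protocols, RNA was extracted with a Qiagen AllPrep kit and libraries followed standard Illumina protocols. TPM keeps no read number, so the depth of each library is unknown and no counting interval was computed.

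Transcripts were matched by Ensembl ID to GENCODE vM21 (60503 matched; the 937 others held 0.508% to 0.590% of a library). TPM was summed over 22594 genes. A gene was tested if 2 or more libraries held 1 TPM or more of it, which left 13188 genes. A gene that passed through 1 tissue alone could hardly be called higher in the other tissue. Among the genes named, this holds for Oas1a, Krt18 and Krt8 through the lung. It holds for Trp63, Ly6i, Ifit1, Ifit3, Erg, Emcn and Plvap through the ear. The genes tested were analysed as log2(TPM + 1), with 1 mean per group, in limma 3.58.1 with trended variances (R 4.3.3; 6 residual and 3.23 prior degrees of freedom). P values were two-sided and adjusted by Benjamini-Hochberg over all genes tested, with a threshold of 0.05. The code was tested on simulated data. Coding words of 31 bases and coding identity were computed from GENCODE vM21 with Biopython 1.88, Python 3.11.15 and pandas 2.3.3.

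The Ly6 genes and the 9 gene lists were chosen with earlier results of these data known. The p values of list genes between the tissues therefore describe the difference and are not an independent test of it. Of 43 symbols of relatives 36 were in the table, and of 28 GPI genes 27. Named were all 6 Ly6 genes, relatives and neighbours within 200 kb with a group mean of at least 1 TPM, up to 3 called genes of each other list with the largest difference, and the 5 genes most like each Ly6 gene. Of the genes most like Ly6c2, 1 is not reported here. A few defining markers outside this rule (Col1a1, Ptprc, Pecam1, Ccr2, Cx3cr1, Itgam, Csf1r, Krt5, Krt14 and the genes at 0) were chosen after their values were seen.

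Replicate numbers are in the labels. In the ear, libraries with the same number deviated together from their group means (correlation 0.453, 0.320 and 0.377), so the numbers may pair samples. In the lung the correlation was -0.443. Ddx3y, a Y-linked gene, was at 52.4 TPM in ear 0 h replicate 2 and 0.0168 TPM in ear 12 h replicate 2, so these did not come from 1 animal. Lung 0 h replicate 2 had 53.3 TPM and the other lung libraries at most 0.758 TPM. Alternatives covered the pseudocount, filters, scaling, weights, the variance trend, the block, transcript sets and leaving out each library.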

Additional observations from a re-analysis of the deposited data

How the results depend on the processing

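In all 24 alternatives for each tissue and 23 for the interaction, 0 Ly6 genes were called with time or for the interaction. The 282 recomputed time and interaction values of single Ly6 genes turned sign 33 times and never passed the threshold, so their signs are not established. These counts include Ly6c1 and Ly6c2 in the lung and in the interaction. There both had passed the filter through the ear alone, so nothing is read from those values. Ly6c1 in the lung, below 1 TPM in all 4 libraries, moved with a pseudocount of 0.1 from -0.44 to -1.74, and its interaction from -0.26 to -1.56. The tissue differences of the 4 Ly6 genes, recomputed 144 times, never turned sign, and 134 stayed within 1 SD of the replicates. The exceptions were low genes under another pseudocount, by its construction, and the summed pair. Leaving out a library of the other time cannot change a tissue difference. The SD used here was the root of the mean of the ear and lung variances. At these group sizes, leaving out 1 library of the same time cannot move a difference by that much. All values with 1 library left out therefore had to stay within 1 SD, and nothing is read from their part of this count. The genes were chosen with this contrast known, so these counts are a description. With a pseudocount of 0.1, Ly6c1 was -5.97 at 0 h and -7.52 at 12 h and Ly6c2 was -5.23 and -5.15. With 0.5, Ly6c1 was -5.22 and -5.78 and Ly6c2 was -3.57 and -3.43. Ly6c1 and Ly6c2 summed gave -4.81 and -5.03 in place of the Ly6c2 value.

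Signs turned as follows, and the cause was not tested. For the ear, array weights gave 0.05 for Ly6a, 0.23 for Ly6c1, 0.26 for Ly6c2 and 0.18 for Ly6e. Leaving out transcripts with an incomplete coding end, an alternative chosen after seeing the data, gave 0.057 for Ly6a and 0.020 for Ly6e. For Ly6c2 in the lung, a pseudocount of 0.1 gave -0.075 and the summed pair -0.40. For the Ly6c2 interaction, array weights gave -0.25 and the summed pair -0.22. Leaving out 1 library at a time, the ear values ranged from -0.47 to 0.20 for Ly6a, -0.48 to 0.21 for Ly6c1, -0.43 to 0.26 for Ly6c2 and -0.21 to 0.20 for Ly6e. The lung values ranged from -0.47 to 0.13 for Ly6a, -0.10 to 0.12 for Ly6c2 and -0.18 to 0.84 for Ly6e. The interaction ranged from -0.37 to 0.30 for Ly6a, -0.65 to 0.036 for Ly6c1, -0.25 to 0.44 for Ly6c2 and -0.13 to 0.89 for Ly6e.

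Over all genes, the lung time contrast called 1 gene. It called 7 without a filter, and 0 with a pseudocount of 0.1, a filter of 5 TPM, only the lung libraries or a replicate block. Leaving out 1 library gave 0 to 121 (121 without lung 12 h replicate 1). The interaction called 2 genes without a filter and 1 with quantile normalization, upper-quartile scaling, no variance trend or complete coding models only. Leaving out 1 library gave 0 to 21 (21 without lung 12 h replicate 1). Lung against ear called 1488 genes at 0 h and 2267 at 12 h. Array weights gave 2368 and 1475, and leaving out 1 library gave 547 to 1752 and 1356 to 2468.

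With the replicate number as a block, 0 Ly6 genes were called in the time contrasts and the interaction, and the ear values were the same as without it. Across tissues the labels do not say whether a number marks 1 animal, and Ddx3y was high in replicate 2 of both tissues at 0 h. There the replicate block left 745 calls at 0 h and 1164 at 12 h. It ended the calls of Ly6i (adjusted p = 0.0937 and 0.0518), Fn1 (0.0780 and 0.0608), Pgap1 at 0 h (0.0637), Erg at 0 h (0.152) and Pign at 12 h (0.250), and 0 of 26 GPI genes were called at 0 h. Crossing the lung numbers in the block, chosen after seeing their negative correlation, called 0 genes in the lung time contrast. The unknown read depth limits values below 1 TPM, which include Ly6d, Ly6k and the lung values of Ly6c1 and Ly6c2.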
